A study of Mus musculus with 15 samples.

Results

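Neurotrophins are secreted growth factors that support the survival, branching and synapses of neurons. The genes followed here were brain-derived neurotrophic factor (Bdnf), neurotrophin 3 (Ntf3), the receptor tyrosine kinases TrkB (Ntrk2) and TrkC (Ntrk3), the p75 neurotrophin receptor (Ngfr), the sorting receptor sortilin (Sort1) and the secreted neuropeptide precursor Vgf. Members were the array probes whose gene symbol in the platform annotation is one of these 7 names. The rule found 11 probes for 5 of the 7 genes, out of 15923 gene symbols and 24607 probes with values: 2 for Bdnf, 1 for Ntrk2, 4 for Ntrk3, 1 for Ngfr and 3 for Sort1. No probe carried the symbol Ntf3 or Vgf in the annotation used, and both genes were not analysed here.

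The cells were primary cortical neurons from foetal Swiss Albino mice of gestation day 15-16, taken at culture day 5. They received 100 µM kainate, an agonist of AMPA and kainate glutamate receptors, for 5, 15 or 24 h (3 arrays each) or vehicle (6 arrays, labelled as control at time 0). The controls thus have no vehicle time course of their own, and all groups share strain, tissue and the stated culture day. Any difference in time in culture between control and kainate arrays cannot be told apart from time of exposure. RNA was hybridised to Illumina mouse bead arrays on 3 beadchips, each with 2 control arrays and 1 array of each kainate time. Replicates of a group carry no label saying that they are separate cultures, so p-values measure the spread between these arrays, which may be technical.

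BDNF binds TrkB, NT-3 binds mainly TrkC, and ligand binding starts the Ras-MAP kinase, PI3 kinase and phospholipase C-gamma pathways. The uncleaved pro-neurotrophins bind p75 together with sortilin, and sortilin also helps to sort BDNF into the regulated secretory pathway of neurons. In the cortex Bdnf is a classic activity-regulated gene, transcribed from several promoters, one of which holds a cyclic AMP response element (CRE) bound by CREB. TrkB and TrkC are also made as truncated forms without a kinase domain, and in the brain truncated TrkB is abundant in astrocytes.

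In GRCm38.p6 the RefSeq annotation places Bdnf at chr2:109674700-109727043, Ntrk2 at chr13:58806472-59133970, Ntrk3 at chr7:78179986-78581034, Ngfr at chr11:95568818-95587698 and Sort1 at chr3:108283974-108361519. RefSeq promoter windows, from 250 bases before to 50 after a transcript start, were at hand for Bdnf (7 windows), Ntrk2 (1) and Ngfr (1). The CRE core TGACG, on either strand, was present in 1 of the 7 Bdnf windows and in neither of the other 2 windows, against 20.8% of all 32851 windows. The full CRE TGACGTCA was in none of the 9 windows and in 1.79% of all windows. The 100 bases upstream of the start in the matching Bdnf window are shown because Bdnf had the largest change of the members, with the match, which lies on the other strand and begins at position -35 from the start, in capitals. The same stretch of Ntrk2, the receptor of BDNF, follows for comparison and holds no match. The start used for Ntrk2 lies inside the annotated gene, which begins at 58806472. Its window therefore does not cover the full 250 bases before the gene, and the absence of a match holds for this window only. Both stretches are on the plus strand of GRCm38.p6, at chr2:109692336-109692435 for Bdnf and chr13:58806469-58806568 for Ntrk2. A match of letters does not show binding.
Bdnf: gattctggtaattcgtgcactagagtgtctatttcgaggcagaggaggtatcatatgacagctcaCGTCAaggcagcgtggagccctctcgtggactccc
Ntrk2: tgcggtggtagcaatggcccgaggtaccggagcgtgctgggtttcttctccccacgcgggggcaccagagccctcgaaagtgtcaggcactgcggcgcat

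Over all targets, the median signal per array was 53.4 to 70.4 and 49.5% to 55.2% of targets were detected. Signals were background-corrected, quantile normalized and put on a log2 scale (normalized log2 signal), and 14154 probes that were detected on enough arrays were tested with limma, with Benjamini-Hochberg adjustment over all of them. Of the 11 member probes 10 were tested. Pairs of arrays of one group correlated between 0.978 and 0.9958. Control replicates 1 and 3 did not lie with the rest of the controls: on the first principal component, which held 51.6% of the variance, they lay at -25.1 and -26.4, between the other controls (-39.1 to -36.1) and the kainate arrays (4.40 to 33.7). Member results that rest on them are given with and without them. The groups also differ in their position on the beadchip, and position and group cannot be told apart. The neuronal markers Tubb3, Map2, Dcx and Stmn2 were detected on all 6 control arrays, while Snap25 was detected on 2 of them, Rbfox3 has no probe in the annotation and Nefl was not detected on the control arrays.

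Bdnf, Ntrk2 and 2 of the 3 Sort1 probes were higher than control at every kainate time, and 2 of the 4 Ntrk3 probes were higher at 15 h. At 5 h, 5 of the 10 tested member probes rose and 0 fell, against 17.9% of all tested probes higher and 20.8% lower, 38.6% in all. At 15 h, 7 of 10 rose and 0 fell (21.8% of all tested probes higher and 23.4% lower, 45.3% in all), and at 24 h 6 of 10 rose and 0 fell (21.1% higher and 21.9% lower, 43% in all). The kainate and control arrays did not overlap for 4 of 10 member probes at 5 h, 8 at 15 h and 5 at 24 h, against 35.7%, 41.7% and 33.8% of all tested probes. In each of these counts 2 probes are those of Bdnf, which met the filter for testing only through the kainate arrays. The counts are therefore not independent of that filter, and no excess over all tested probes is read from them. The median change over all tested probes was -0.03 at 5 h, -0.03 at 15 h and -0.01 at 24 h on the log2 scale. Without control replicates 1 and 3 the counts of risen member probes were the same, 5, 7 and 6. In that fit 45.0%, 49.9% and 47.7% of all tested probes were called in either direction at 5, 15 and 24 h. Without 5 h replicate 2, 3 of 10 remained called at 5 h, near the 29.3% of all tested probes called there.

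**Figure D1:**
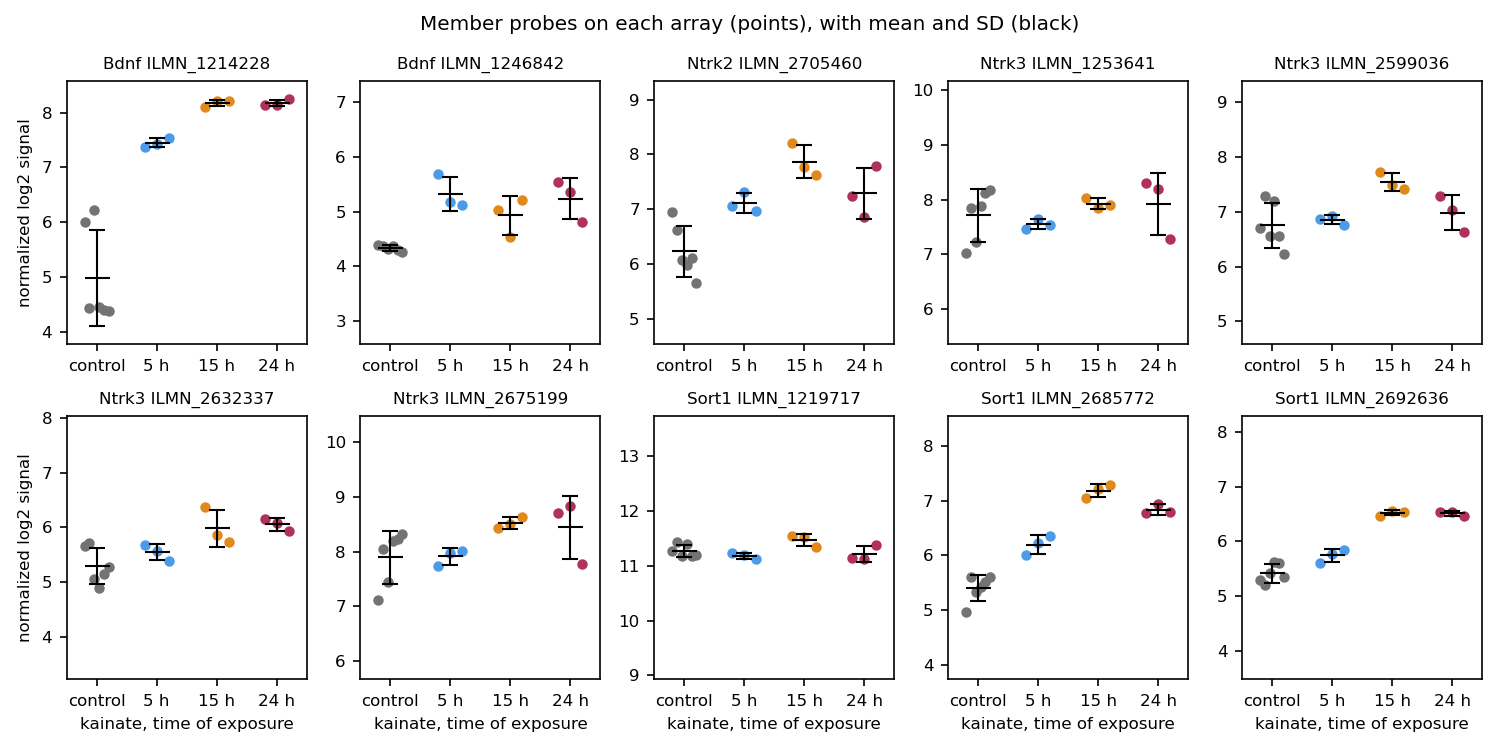
Normalized log2 signal (y axis; each panel spans the same range) of the 10 tested member probes in the control arrays and after 5, 15 and 24 h of kainate (x axis). Points are single arrays and black bars the mean and SD; the brighter Bdnf probe lies above every control on all 9 kainate arrays, and 2 control arrays near 6 stand apart from the other 4 near 4.4.

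Bdnf was higher on every kainate array than on any control array. Its 2 probes were detected on 2 and 0 of 6 controls, so both met the filter for testing only through the kainate arrays. The calls of Bdnf are therefore not independent of that filter. Its brighter probe, ILMN_1214228, had a normalized log2 signal of 6.00, 4.43, 6.23, 4.45, 4.39 and 4.38 in control replicates 1 to 6. It had 7.38, 7.43 and 7.54 after 5 h of kainate, 8.11, 8.21 and 8.21 after 15 h, and 8.14, 8.15 and 8.24 after 24 h. All 9 kainate arrays were above all 6 controls, and the highest controls were replicates 1 and 3, the only 2 controls on which the probe was detected. The fitted log2 change against control was 2.47 ± 0.36 at 5 h (SE; adjusted p = 5.8e-05), 3.19 ± 0.36 at 15 h (adjusted p = 2.2e-06) and 3.20 ± 0.36 at 24 h (adjusted p = 2.45e-06). Since 4 of 6 controls gave no signal above background, the control mean of 4.98 ± 0.88 (SD, n = 6) includes arrays on which Bdnf has only an upper limit. With each of those 4 arrays set to the lowest signal among its probes above background, Bdnf was at least 4.54-fold higher at 5 h, 7.50-fold at 15 h and 7.51-fold at 24 h. Without background correction the log2 changes were smaller, 1.50, 2.10 and 2.10, and with median-centred signals 1.63, 2.06 and 1.88, each past the threshold. In bulk RNA, a change in the number of cells of a type and a change in RNA per cell cannot be told apart.

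Against the 4 controls other than replicates 1 and 3, on none of which the probe was above background, Bdnf was at least 6.10-fold higher at 5 h and 10.1-fold at 15 h and 24 h. When those 2 controls and the 5 h arrays were taken as a block against the other arrays, the change at 5 h was 1.33 ± 0.09 (adjusted p = 7.99e-08). No label joins control replicates 1 and 3 to the 5 h arrays, and the block was an assumption. Its 5 h change is measured against control replicates 1 and 3 alone. Within the first 2 beadchips, which each hold 1 control with a signal above background, the kainate array minus the mean of its 2 controls was 2.16 and 2.09 at 5 h, 2.89 and 2.87 at 15 h, and 2.92 and 2.81 at 24 h. On the third beadchip neither control was above background, and the kainate arrays lay above both.

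The second Bdnf probe, ILMN_1246842, which is annotated to another Bdnf transcript, was near background. It was detected on 0 of 6 controls, on 3 of 3 arrays at 5 h, and on 2 of 3 arrays at both 15 h and 24 h. Its normalized log2 signal was 4.27 to 4.39 in the controls, with 5.68, 5.17 and 5.13 at 5 h, 5.03, 4.54 and 5.22 at 15 h, and 5.54, 5.36 and 4.81 at 24 h. Every kainate array again lay above every control. The fitted log2 changes, with controls at background, were 0.99, 0.59 and 0.90 at 5, 15 and 24 h (limma, adjusted p = 0.000212, 0.00767 and 0.000334). At 5 h the probe was at least 1.45-fold higher, taking in each control array the lowest signal among probes above background, or the probe's own where that was higher. At 15 h and 24 h the same calculation gave 1.10-fold and 1.36-fold. Those values are not lower limits, because an undetected kainate array entered each at its own signal. The call at 15 h was lost without 15 h replicate 3, where the fitted change was 0.45.

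Whether the probes of a gene changed unequally was tested on their difference within each array, over 30 comparisons (10 pairs at 3 times), of which 0 passed adjustment. The two-sided exact permutation test on 3 against 6 arrays cannot go below 0.0238, and the smallest adjusted p was 0.0649. All comparisons at that floor share this adjusted p, whatever the size of their difference. A failure to pass therefore does not show that the probes of a gene changed alike. For Bdnf no such difference is given, because in the controls the background sets the level of the dimmer probe on all arrays and of the brighter one on 4.

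Neurotrophin 4, the other TrkB ligand (Ntf5), was not detected on any array, with signals of 35.4 to 56.5 before normalization. The list of ligands and of enzymes that process them had 7 tested genes, of which 1 rose and 1 fell at 5 h, 2 rose and 2 fell at 15 h, and 2 rose and 2 fell at 24 h. Plat, the tissue plasminogen activator whose product plasmin cleaves proBDNF, rose by 1.59 ± 0.11 at 5 h, 1.42 ± 0.11 at 15 h and 1.24 ± 0.11 at 24 h (log2 change, SE; adjusted p = 1.3e-08, 2.31e-08 and 1.12e-07). Plau, the urokinase-type activator, rose at 15 h (0.64) and 24 h (0.66), with -0.02 at 5 h. Serpini1, neuroserpin, an inhibitor of Plat, fell by 0.31, 1.03 and 1.14 at 5, 15 and 24 h. Mmp9, a matrix metalloproteinase that can cleave proBDNF, fell by 0.55 at 15 h, where it was detected on 2 of 3 arrays, and 0.48 at 24 h, and had a change of -0.37 at 5 h that did not pass (adjusted p = 0.0853).

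Over all 9824 tested genes, the share that rose and fell was 18.5% and 22.9% at 5 h, 23.2% and 24.5% at 15 h, and 22.7% and 22.3% at 24 h, and the counts of the gene lists are to be read against it. The genes known to regulate Bdnf transcription included more that rose than that fell. Of 16 tested, 7 rose and 0 fell at 5 h (median log2 change 0.31, against -0.04 over all 9824 tested genes), 6 rose and 3 fell at 15 h (0.30 against -0.02), and 8 rose and 0 fell at 24 h (0.23 against 0.00). Without control replicates 1 and 3 the counts were 5 and 2 at 5 h, 6 and 4 at 15 h, and 7 and 2 at 24 h. With signals centred on each array's median in place of quantile normalization they were 4 and 3 at 24 h. In that median-centred fit 46.5% of all tested probes were called at 24 h, and only 23.3% of these calls were higher. Npas4, a transcription factor induced by calcium entry that binds Bdnf promoters, rose by 5.59 ± 0.09 at 5 h, 4.74 ± 0.09 at 15 h and 4.70 ± 0.09 at 24 h (SE; 48.1-, 26.8- and 26-fold). Crem, a relative of CREB, rose by 1.43, 1.25 and 1.31. The class IIa histone deacetylases Hdac4 and Hdac5, which repress MEF2 targets, rose by 0.52, 0.95 and 1.42 and by 0.78, 0.87 and 1.23.

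The 3 probes of other genes whose signal ran most like Bdnf ILMN_1214228 over the 15 arrays were those of Scg2 (Pearson r = 0.998), Fndc9 (0.990) and Cdk2ap1 (0.989). The arrays fall into groups and share the high control replicates 1 and 3, so these values describe a shared order of groups as well as of arrays. Scg2, which encodes secretogranin II, a dense-core granule protein, had 10.4, 8.68, 10.7, 8.67, 8.58 and 8.66 in control replicates 1 to 6. It had 12.1, 12.1 and 12.2 at 5 h, 12.7, 12.7 and 12.9 at 15 h, and 12.8, 12.8 and 12.6 at 24 h. As with Bdnf, replicates 1 and 3 were the highest controls and all kainate arrays lay above them. Scg2 rose by 2.83, 3.47 and 3.44 at 5, 15 and 24 h, Fndc9 by 1.35, 1.84 and 1.92, and Cdk2ap1 by 0.76, 1.18 and 1.23, as log2 changes.

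**Figure D2:**
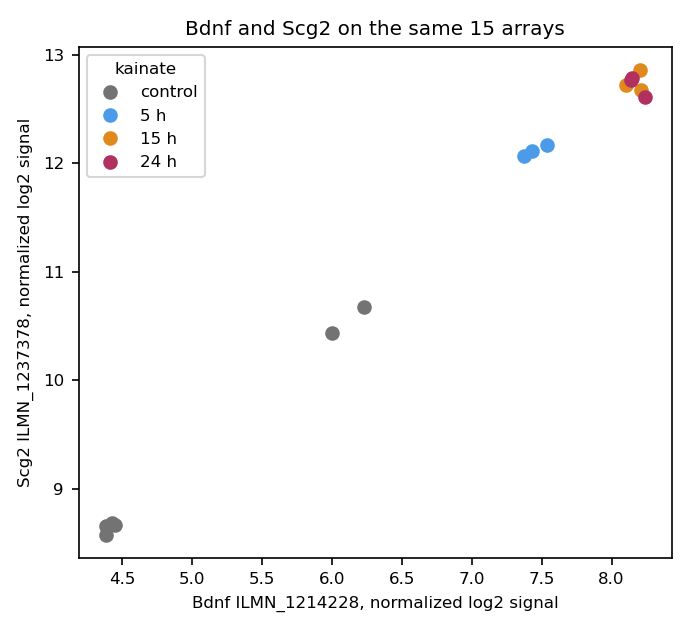
Normalized log2 signal of Scg2 (y axis) against that of Bdnf ILMN_1214228 (x axis) on the 15 arrays, coloured by time of kainate exposure. The 4 low controls, control replicates 1 and 3, the 5 h arrays and the later arrays follow each other along one line (r = 0.998).

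The TrkB gene Ntrk2 rose at each time, most at 15 h. Its single probe, ILMN_2705460, had 6.94, 6.61, 6.06, 5.98, 6.12 and 5.66 in control replicates 1 to 6, 7.05, 7.32 and 6.98 at 5 h, 8.21, 7.77 and 7.63 at 15 h, and 7.25, 6.85 and 7.78 at 24 h. At 5 h and 15 h all kainate arrays lay above all controls, and at 24 h replicate 2 lay below the highest control. The log2 change was 0.89 ± 0.25 at 5 h (SE; 1.85-fold, adjusted p = 0.00938), 1.64 ± 0.25 at 15 h (3.12-fold, adjusted p = 4.38e-05) and 1.06 ± 0.25 at 24 h (2.09-fold, adjusted p = 0.00219). Without background correction the changes were 0.59, 1.18 and 0.73, and with median-centred signals the change at 24 h was 0.55, all past the threshold. The Ntrk2 probe is annotated to a single transcript, while RefSeq lists 9 for the gene. Whether the TrkB form with or without the kinase domain rose was not tested.

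The 5 h call for Ntrk2 was lost without 5 h replicate 2 (0.79) and when control replicates 1 and 3 were blocked with the 5 h arrays (0.61, adjusted p = 0.144), and without those 2 controls the changes were 1.03, 1.78 and 1.20 at 5, 15 and 24 h. Within the 3 beadchips the differences were 0.27, 1.30 and 1.09 at 5 h, 1.43, 1.75 and 1.74 at 15 h, and 0.47, 0.83 and 1.90 at 24 h. All 9 were above 0. The 15 h level exceeded the 5 h level by 0.75 ± 0.28 (adjusted p = 0.0525), which passed with beadchip as the replicate block at the same size of change. The order of the means was 15 h, 24 h, 5 h and control, and no neighbouring pair of kainate times differed past the threshold in the fit without the block.

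The summed signals of astrocyte and neural progenitor markers, like Ntrk2, were highest at 15 h, while those of oligodendrocyte lineage and fibroblast markers were not. Of 7 tested astrocyte markers, 3 rose and 0 fell at 5 h, 5 rose and 0 fell at 15 h, and 5 rose and 1 fell at 24 h. Their summed normalized signal lay between 14758 and 15284 in controls, between 19032 and 19264 at 5 h, between 28393 and 30106 at 15 h, and between 22679 and 28263 at 24 h. Gfap, the astrocyte intermediate filament, rose by 1.74 and Gja1, the connexin of astrocytes, by 1.73 at 15 h. Aldh1l1 has no probe in the annotation and S100b and Slc1a2 were not detected.

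Of 6 tested neural progenitor markers, 4, 5 and 3 rose and 0 fell at 5, 15 and 24 h, with a summed signal between 5714 and 6860 in controls, 10398 and 11481 at 5 h, 16772 and 17877 at 15 h, and 14489 and 15774 at 24 h. Of 8 tested neuronal markers, 1, 0 and 0 rose and 3, 5 and 5 fell, with sums between 22882 and 29015 in controls, 22497 and 24612 at 5 h, 17716 and 18735 at 15 h, and 16212 and 18230 at 24 h. Of 8 tested oligodendrocyte lineage markers, 1, 0 and 3 rose and 3, 1 and 0 fell at 5, 15 and 24 h. The oligodendrocyte lineage markers summed to between 11414 and 12730 in controls and between 8460 and 9121 at 5 h. At 15 h their sum lay between 10726 and 11488, and at 24 h between 12907 and 15583. Fibroblast and meningeal markers summed to between 1018 and 1185 in controls and between 1006 and 1067 at 5 h. Their sum lay between 387 and 460 at 15 h and between 352 and 399 at 24 h. The part of any of these cells in the changes of Ntrk2, Ntrk3 and Sort1 was not tested. Microglial markers summed to 116 to 195 over all arrays, with Itgam, Tyrobp and Ptprc not detected and Csf1r without a probe in the annotation, and endothelial and mural markers to 390 to 1406.

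The probes nearest in pattern to Ntrk2 over the 15 arrays were those of Tmem47 (r = 0.966), Ginm1 (0.960) and Tnks (0.951). Tmem47 had log2 changes of 0.64, 1.17 and 0.71 at 5, 15 and 24 h. Among the members, the brightest probes of Bdnf and Ntrk2 correlated at 0.84 over the 15 arrays, and that of Sort1 correlated with Bdnf at 0.07 and with Ntrk2 at 0.48. These values describe arrays that share group and library and carry no test.

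The 4 TrkC (Ntrk3) probes did not give one answer, and which of them read the form with or without the kinase domain was not tested. ILMN_2599036 and ILMN_2632337 rose at 15 h, by 0.79 ± 0.20 (adjusted p = 0.00378) and 0.70 ± 0.18 (adjusted p = 0.00394). At 24 h ILMN_2632337 was higher by 0.77 ± 0.18 (adjusted p = 0.00208), and ILMN_2599036 had a change of 0.23 (adjusted p = 0.374). At 5 h none of the 4 passed in limma, with unadjusted p-values all above 0.05 and changes from -0.16 to 0.26.

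ILMN_2599036 had 6.70, 7.29, 6.55, 7.20, 6.55 and 6.24 in control replicates 1 to 6, 6.87, 6.93 and 6.77 at 5 h, 7.73, 7.50 and 7.42 at 15 h, and 7.29, 7.03 and 6.64 at 24 h. Only the 15 h arrays all lay above the controls. ILMN_2632337, a dimmer probe, had 5.65, 5.71, 5.06, 4.89, 5.16 and 5.27 in controls, 5.68, 5.57 and 5.39 at 5 h, 6.37, 5.85 and 5.73 at 15 h, and 6.16, 6.08 and 5.93 at 24 h. Its 15 h and 24 h arrays all lay above the controls, at 15 h by a narrow margin. Without control replicates 1 and 3 both probes were still called at 15 h, with changes of 0.73 each.

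The 2 brighter Ntrk3 probes did not pass at any time. ILMN_2675199 had 7.12, 8.04, 7.45, 8.19, 8.23 and 8.33 in controls, 7.74, 7.98 and 8.01 at 5 h, 8.42, 8.51 and 8.63 at 15 h, and 8.71, 8.83 and 7.78 at 24 h. ILMN_1253641, the 1 probe annotated to another Ntrk3 transcript than the other 3, had 7.02, 7.84, 7.22, 7.89, 8.11 and 8.18 in controls, 7.47, 7.64 and 7.54 at 5 h, 8.04, 7.85 and 7.90 at 15 h, and 8.30, 8.20 and 7.27 at 24 h. On both probes control replicates 1 and 3 were the lowest controls, by 0.91 and 0.88 on average, and 24 h replicate 3 was the lowest 24 h array.

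For ILMN_2675199 the change was 0.02 at 5 h, 0.63 ± 0.26 at 15 h (adjusted p = 0.0562) and 0.55 ± 0.26 at 24 h (adjusted p = 0.0978). The 15 h change passed when any one of control replicates 4, 5 and 6 was left out (0.69 to 0.72), and the 24 h change without 24 h replicate 3 (0.88). At 5 h it was 0.63, past the threshold, with control replicates 1 and 3 blocked with the 5 h arrays, and -0.29 without those 2 controls. For ILMN_1253641 the changes were -0.16, 0.22 and 0.21, and without control replicates 1 and 3 those at 15 h and 24 h were -0.08 and -0.08. Within the beadchips its 24 h differences were 0.87, 0.64 and -0.87.

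The change of ILMN_2675199 minus that of ILMN_1253641 was 0.41 at 15 h and 0.33 at 24 h, at the smallest exact p the design allows (0.0238, two-sided permutation; adjusted p = 0.0649). The probes most like ILMN_2675199 were those of Bbx (r = 0.939), Atp7a (0.925) and Ccdc84 (0.924).

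The p75 gene Ngfr was not detected. Its probe gave 38.9, 39.9, 45.8, 44.5, 41.5 and 33.5 signal units in the controls, 44.2, 51.2 and 45.1 at 5 h, 44.9, 40.0 and 45.8 at 15 h, and 32.9, 38.8 and 37.6 at 24 h, before normalization. None of the 15 arrays called it above background, so no change is given.

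Sort1 had 3 probes, all annotated to one transcript: 2 rose at each time and 1 did not pass at any time. The tests of the difference between them did not pass adjustment, which at the floor of the exact test does not show that they changed alike. ILMN_1219717 had 11.27, 11.43, 11.19, 11.40, 11.17 and 11.21 in control replicates 1 to 6, 11.24, 11.20 and 11.12 at 5 h, 11.55, 11.53 and 11.35 at 15 h, and 11.15, 11.13 and 11.39 at 24 h. The groups overlapped, and the changes of -0.09 ± 0.09 at 5 h, 0.20 ± 0.09 at 15 h and -0.06 ± 0.09 at 24 h did not pass (adjusted p = 0.460, 0.0903 and 0.650). With signals centred on the array median it fell at 24 h, by 0.48 (adjusted p = 0.0013), and in the authors' deposited ratios by 0.45 (adjusted p = 0.00167).

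ILMN_2685772 had 4.97, 5.60, 5.34, 5.43, 5.52 and 5.60 in controls, 6.01, 6.22 and 6.36 at 5 h, 7.05, 7.22 and 7.29 at 15 h, and 6.78, 6.95 and 6.79 at 24 h. Every kainate array lay above every control. It rose by 0.79 ± 0.13 at 5 h (1.73-fold, adjusted p = 0.000174), 1.78 ± 0.13 at 15 h (3.42-fold, adjusted p = 1.83e-08) and 1.43 ± 0.13 at 24 h (2.69-fold, adjusted p = 2.19e-07). Without background correction these changes were 0.42, 1.09 and 0.84, all past the threshold. The 3 beadchips gave 0.73, 0.84 and 0.80 at 5 h, 1.76, 1.83 and 1.73 at 15 h, and 1.50, 1.56 and 1.23 at 24 h.

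ILMN_2692636 had 5.29, 5.20, 5.42, 5.63, 5.60 and 5.34 in controls, 5.61, 5.77 and 5.85 at 5 h, 6.47, 6.56 and 6.54 at 15 h, and 6.54, 6.54 and 6.46 at 24 h. At 5 h 1 array lay below the highest control, and at 15 h and 24 h the groups were apart. It rose by 0.33 ± 0.10 at 5 h (adjusted p = 0.0155), 1.11 ± 0.10 at 15 h (adjusted p = 1.79e-07) and 1.10 ± 0.10 at 24 h (adjusted p = 2.33e-07). Without background correction they were 0.16, 0.62 and 0.62, all past the threshold. The 5 h call was lost without 5 h replicate 2 (0.31) or 3 (0.28). Without control replicates 1 and 3 all calls of the 2 dim probes held, with 0.66, 1.65 and 1.30 for ILMN_2685772 and 0.30, 1.08 and 1.07 for ILMN_2692636 at 5, 15 and 24 h.

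The change of ILMN_1219717 minus that of ILMN_2685772 was -0.88 at 5 h, -1.58 at 15 h and -1.49 at 24 h, each with the smallest exact p of the design (0.0238, two-sided permutation; adjusted p = 0.0649). Against ILMN_2692636 the differences were -0.42, -0.91 and -1.15, with an exact permutation p of 0.0476 at 5 h (adjusted p = 0.102). These values do not say which probe follows the transcript. The probes most like ILMN_1219717 were those of Tafa5 (r = 0.896), Ghr (0.843) and Zfand3 (0.840).

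**Figure D3:**
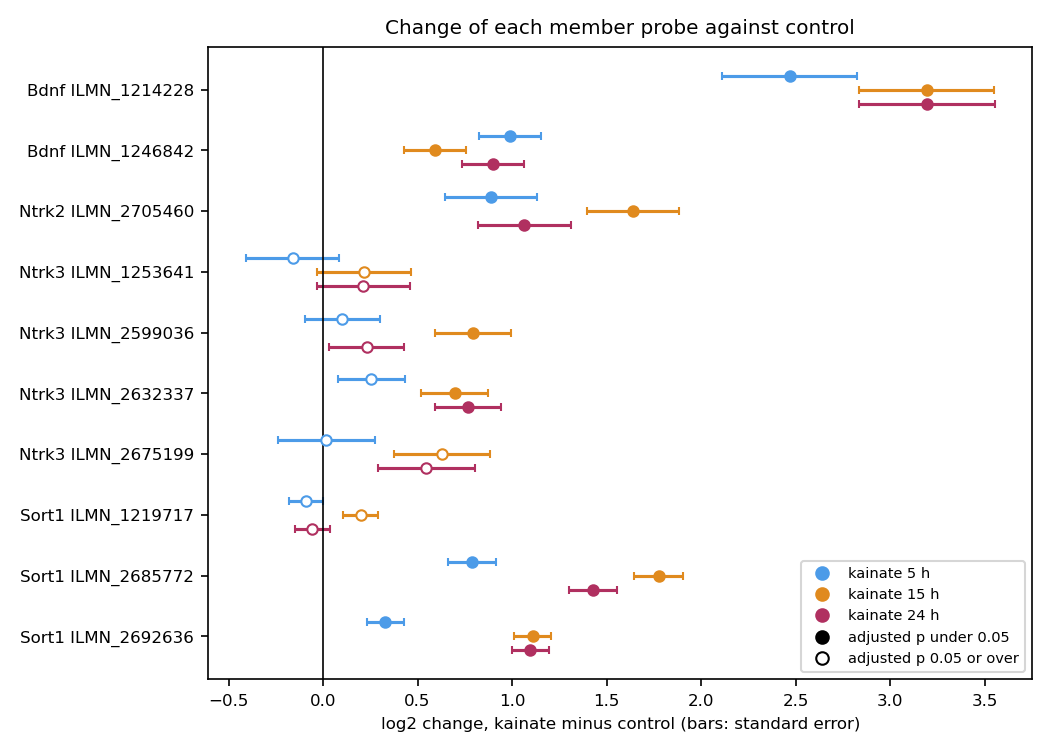
Log2 change of the 10 tested member probes (rows) between kainate and control (x axis), with standard errors, at 5, 15 and 24 h; filled points have an adjusted p under 0.05. The 2 dim Sort1 probes reach 1.78 and 1.11 at 15 h while the bright one stays between -0.09 and 0.20.

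At 15 h 4 of 10 member probes were higher than at 5 h and 0 lower, against 17% of all tested probes higher and 16% lower, 33% in all. These were Sort1 ILMN_2685772 (0.99 ± 0.15, adjusted p = 0.000117), Sort1 ILMN_2692636 (0.78 ± 0.11, adjusted p = 9.79e-05), Ntrk3 ILMN_2599036 (0.69 ± 0.23, adjusted p = 0.0296) and Sort1 ILMN_1219717 (0.29 ± 0.11, adjusted p = 0.0455). With beadchip as the replicate block the call for Sort1 ILMN_1219717 was lost and Ntrk2 and Ntrk3 ILMN_2632337 (0.44) passed. Sort1 ILMN_1219717 and Ntrk3 ILMN_2599036 lost their calls without any one 5 h array and without 15 h replicate 1 or 2, leaving 2 called. Bdnf ILMN_1214228 was higher at 15 h than at 5 h by 0.72 ± 0.41 (adjusted p = 0.197), although the 3 arrays of each time did not overlap, as in 56.4% of all tested probes. With only these 2 groups in the fit the same change passed, and without background correction it was 0.60 and passed. With control replicates 1 and 3 blocked with the 5 h arrays, a block that no label gives, it was 2.43 and passed. That value includes the 1.70 by which control replicates 1 and 3 exceeded the other controls.

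At 24 h 2 of 10 member probes were higher than at 5 h and 0 lower (18.6% of all tested probes higher and 17% lower, 35.6% in all; 50.2% without overlap), Sort1 ILMN_2685772 by 0.64 ± 0.15 (adjusted p = 0.00336) and Sort1 ILMN_2692636 by 0.77 ± 0.11 (adjusted p = 0.000104). With beadchip as the replicate block Ntrk3 ILMN_2632337 passed too (0.51), and with median-centred signals the call of Sort1 ILMN_2685772 was lost (0.21, adjusted p = 0.0862). Between 24 h and 15 h 0 of 10 passed in limma, against 0.219% of all tested probes higher and 0.424% lower, 0.643% in all (20.3% without overlap). Ntrk3 ILMN_2599036, Sort1 ILMN_1219717 and Sort1 ILMN_2685772 had an unadjusted limma p under 0.05, each lower at 24 h. The share of all tested probes at that looser cut-off was not counted, so no excess can be read from these 3. Bdnf had a mean of 8.17 at both times.

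Partners of the receptors were followed with a list of 7 tested genes, of which 1, 2 and 2 rose and 2, 2 and 2 fell at 5, 15 and 24 h. Rtn4r, the Nogo receptor, which can signal with p75, fell by 1.04, 1.32 and 1.26, and was detected on 1 of 3 arrays at 15 h and at 24 h. Lrig1, a transmembrane inhibitor of receptor tyrosine kinases, rose by 0.28, 0.89 and 0.75. Islr2, a transmembrane protein with leucine-rich repeats, fell by 0.73 at 15 h and 0.55 at 24 h, detected on 2 of 3 arrays at both (-0.32 at 5 h, adjusted p = 0.203). Nradd, a relative of p75, had fitted changes of 0.81 at 15 h and 0.75 at 24 h that passed (0.39 at 5 h, adjusted p = 0.194), but it was detected on 1 of 6 controls, so the control level is mostly an upper limit.

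Downstream of the Trk receptors, 32 genes were tested: 7 rose and 7 fell at 5 h, 6 rose and 10 fell at 15 h, and 5 rose and 10 fell at 24 h, with medians of -0.07, -0.11 and -0.14 against -0.04, -0.02 and 0.00 over all tested genes. At 24 h 4 rose and 15 fell when signals were centred on the array median, a fit in which only 23.3% of calls over all tested probes were higher. Frs3, an adaptor that docks to Trk receptors, fell by 1.15, 0.82 and 0.92. Gab1, a docking protein for PI3 kinase, had 0.02 at 5 h and rose by 1.20 at 15 h and 0.88 at 24 h. Rps6ka3, the kinase RSK2, rose by 0.52, 0.94 and 0.69. Pik3r1, a regulatory subunit of PI3 kinase, rose by 1.11 at 5 h, with 0.08 at 15 h and -0.18 at 24 h.

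Of 16 tested genes of p75 signalling, 4, 5 and 5 rose and 3, 3 and 3 fell at 5, 15 and 24 h. Without quantile normalization, centred on the array median, 1 rose and 6 fell at 24 h, where only 23.3% of calls over all tested probes were higher. Bcl2l11, the pro-apoptotic protein Bim, rose by 0.81, 0.86 and 0.45, and Casp9, an initiator caspase, fell by 0.68, 0.57 and 0.94. Nfkbia, the inhibitor of NF-kappaB, rose by 0.46, 0.46 and 0.63, and Rela, an NF-kappaB subunit, rose by 0.71 at 15 h and 0.26 at 24 h (0.05 at 5 h).

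BDNF is released from dense-core granules, and of 10 tested genes of those granules and of prohormone processing 2, 2 and 3 rose and 1, 4 and 4 fell at 5, 15 and 24 h. With median-centred signals 1 rose and 5 fell at 24 h, where only 23.3% of calls over all tested probes were higher. Scg2 rose as given above. Chga, chromogranin A, fell by 1.05 at 15 h and 0.75 at 24 h (0.03 at 5 h). Pcsk1n, an inhibitor of prohormone convertase 1, fell by 0.91 and 0.69 (0.18 at 5 h), and Cadps, which primes granules for release, by 0.96 and 1.00 (0.01 at 5 h).

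Of 10 tested feedback inhibitors of receptor tyrosine kinases, 2, 3 and 4 rose and 1, 0 and 0 fell at 5, 15 and 24 h. Without control replicates 1 and 3, 2 rose and 3 fell at 5 h. With median-centred signals 2 rose and 1 fell at 24 h, where only 23.3% of calls over all tested probes were higher. Dusp6, a phosphatase of ERK, rose by 1.84, 1.35 and 1.23. Spred1, an inhibitor of the Ras pathway, rose by 0.59 at 5 h, with 0.24 at 15 h and 0.00 at 24 h. Nedd4l, a ubiquitin ligase, rose by 0.63 at 15 h and 0.72 at 24 h (-0.25 at 5 h), and Ptpn1, a tyrosine phosphatase, fell by 0.46 at 5 h and rose by 0.35 at 15 h and 0.35 at 24 h.

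**Figure D4:**
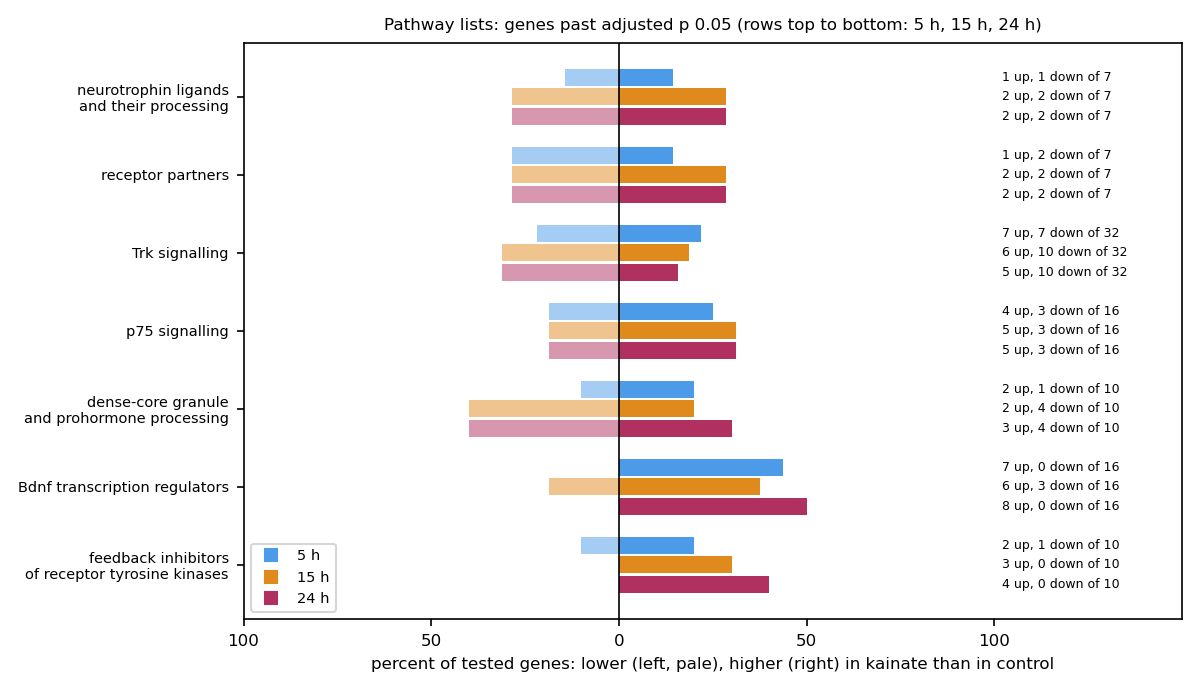
Percent of the tested genes of each pathway list (rows) that were lower (left, pale) or higher (right) with kainate than in control at an adjusted p under 0.05, at 5, 15 and 24 h. Regulators of Bdnf transcription had 7 of 16 genes higher and 0 lower at 5 h, and Trk signalling had 6 higher and 10 lower of 32 at 15 h.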

How the data were processed

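The authors deposited one table of signal intensities exported from BeadStudio 3.2.3 without normalization, per the file headers. Each probe has an average signal, a bead standard deviation, a bead number and a detection score, which was taken as 1 minus the detection p-value. A second deposited table held the authors' normalized ratio, whose reference is not given in the sources used here; it served as an alternative, as log2 with a floor of 0.01. The bead arrays give no read depth: member probes had 14 to 52 beads per array, with a bead standard error of 2.26% to 17.6% of the signal. The 72 columns of 9 other arrays were not used. The gene descriptions deposited beside the signals disagree with the platform annotation and were not used: rows were tied to probes by an exact match of the authors' normalized values with those of the annotated value table, and named through the platform annotation, so each member's identity rests on that match. In it 20854 targets had 1 symbol, 1 several and 3752 none.

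Intensities were normalized with limma 3.58.1 in R 4.3.3 (neqc: normexp background correction, whose background is estimated from signals and detection p-values, offset 16, quantile normalization, log2), leaving out 1 bright target (signal over 1000) with a detection p above 0. Probes with detection p below 0.05 on at least 3 of 15 arrays were tested (14154). One fit over all 4 groups (lmFit, eBayes) gave all comparisons, with a Benjamini-Hochberg adjusted p under 0.05 as the threshold. Lists are counted by the brightest tested probe of each gene. Differences between probes of a gene were tested with exact permutation tests (SciPy 1.17.1). The fit was tested on simulated data.

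The members and lists were chosen with earlier results of these data known. The genes named were all member probes, Ntf5, and the 3 probes most correlated with the brightest probe of each member. From each list up to 4 genes with the largest change among those past the threshold at any time were named. Tubb3, Map2, Dcx, Stmn2, Snap25, Gfap, Gja1, Dcn and undetected markers are named from the marker lists. Same-numbered kainate arrays share a beadchip, per the labels; their deviations from group means correlated at -0.11 to 0.29, and the pairing was used only as an alternative. Some genes the rule covers are not reported here. Promoter sequences are from RefSeq, GRCm38.p6.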

Additional observations from a re-analysis of the deposited data

Results flagged for a closer look

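The change with kainate differed between exposure times for 4 member probes, by the test of the difference itself. Between 15 h and 5 h the log2 difference was 0.69 for Ntrk3 ILMN_2599036, 0.29 for Sort1 ILMN_1219717, 0.99 for Sort1 ILMN_2685772 and 0.78 for Sort1 ILMN_2692636. Between 24 h and 5 h it was 0.64 for Sort1 ILMN_2685772 and 0.77 for Sort1 ILMN_2692636. No control array of a member probe lay apart from its group by Dixon's test. Control replicates 1 and 3 lie together, a pattern that such a test of 1 array cannot pick out.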

How the results depend on the processing

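Over the alternatives, 702 of 766 values kept their direction and side of the threshold, though not always their size: without background correction the 15 h changes of Bdnf ILMN_1214228 and Sort1 ILMN_2685772 were 2.10 and 1.09. The 766 hold all changes against control and none between 24 h and 15 h. From the other comparisons of times they hold only changes called in the main fit, with Bdnf ILMN_1214228 and Ntrk2 added at 15 h against 5 h. The share is thus not one of all member values. The counts of called member probes below are out of 10, with the share of all tested probes called in the same fit in brackets. Between 15 h and 5 h (main value 4, 33.0%) the count was 2 with median-centred signals (32.1%) and 2 with the authors' deposited ratio (33.1%). It was 9 with array weights (51.3%), 8 with only these 2 groups in the fit (47.0%), and 2 to 4 with 1 array left out (25.3% to 27.3%). Between 24 h and 15 h (main value 0, 0.643%) it was 2 with median-centred signals (4.90%), the deposited ratio (3.57%) or array weights (12.7%). Between 24 h and 5 h (main value 2, 35.6%) it was 6 with array weights (47.3%) and 4 with only these 2 groups (35.0%). Leaving out 1 array gave 3 to 5 called probes at 5 h against control (28.9% to 42.2%).

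Of the values counted there, those that turned direction had not passed, and none passed after turning. With median-centred signals these were Sort1 ILMN_1219717 at 5 h (0.005), Ntrk3 ILMN_1253641 at 24 h (-0.052) and Ntrk3 ILMN_2599036 at 24 h (-0.0001), with the deposited ratio Ntrk3 ILMN_1253641 at 24 h (-0.032), and with array weights Ntrk3 ILMN_2675199 at 5 h (-0.16). Without control replicates 1 and 3 the values were -0.29 for Ntrk3 ILMN_2675199 at 5 h and -0.078 and -0.081 for Ntrk3 ILMN_1253641 at 15 h and 24 h. Where replicates 1 and 3 and the 5 h arrays formed one block, Ntrk3 ILMN_1253641 had 0.43, -0.078 and -0.081 at 5, 15 and 24 h. With 1 array left out, Ntrk3 ILMN_2675199 at 5 h ranged from -0.14 to 0.10 and Ntrk3 ILMN_2599036 at 5 h from -0.0015 to 0.21. The cause was not tested.

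Median-centring moved the median of all tested probes at 24 h against control to -0.11 and the share of higher calls among all calls to 23.3%, against 49.1% after quantile normalization; the deposited ratio gave -0.11 and 25.4%. At 5 h against control those shares were 61.6% and 59.4%, against 46.3%. With beadchip as the replicate block, Ntrk2 ILMN_2705460 (0.75) and Ntrk3 ILMN_2632337 (0.44) gained and Sort1 ILMN_1219717 (0.29) lost a call at 15 h against 5 h, Ntrk3 ILMN_2632337 (0.51) gained one at 24 h against 5 h, and no other member call changed. Signals near background limit Bdnf ILMN_1246842 and, in 4 controls, Bdnf ILMN_1214228.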
